A study of Homo sapiens with 21 samples.

Results

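The replication-dependent histone genes of chromosome 6p22 were examined in ATAC-seq peak lists of human microglia-like cells. ATAC-seq marks open chromatin as the places where a transposase can cut and tag the DNA. Overlapping peaks of the 21 libraries, sharing 1 bp or more, were joined, and a joined region at 26 to 28 Mb of chromosome 6 was a member if the nearest protein-coding gene span had a symbol beginning with H1-, H2AC, H2BC, H3C or H4C. This gave 73 member regions of 166736 in the series, and 78 other regions lay in the same 2 Mb window. Of the members, 31 lay within 1 kb of an end of a histone gene and 42 lay farther away.

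All cells derived from the human embryonic stem cell line H9, and the lines are isogenic to it. The 7 groups were unedited WT and 6 CRISPR/Cas9-edited lines, each described in the labels as homozygous. TREM2-R47H carries a missense variant and TREM2-KO a knockout of TREM2, a lipid-sensing receptor of microglia. SORL1-A528T carries a missense variant of SORL1, an endosomal sorting receptor, and SORL1-KO carries the R744X change in the same gene. The CD33 SNP line carries an Alzheimer-associated variant at the gene of a sialic acid receptor, and the INPP5D SNP line, whose parent H9 is heterozygous G/A at this site of an inositol phosphatase gene, was made homozygous for the A allele. Each group had 3 libraries of one line, and edited cells were isolated as clones, so an edit and the clone that carries it cannot be told apart. All groups shared the same culture, which was haematopoietic progenitors kept for 28 days in IL-34, TGF-beta 1 and M-CSF with CD200 and CX3CL1 in the final 3 days, followed by sorting of 80000 viable cells. The libraries titled SORL1-A528T have a genotype label that reads TREM2-KO, and they were grouped by title. The labels do not state whether the replicates are independent differentiations, and the p-values then cover only the spread among these libraries, part of which may be technical.

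Replication-dependent histone genes encode the bulk of the core histones H2A, H2B, H3 and H4 and of the linker histone H1. Their transcription rises in S phase, when new DNA must be packaged, and their short, intronless transcripts end in a stem-loop in place of a poly(A) tail. Many H2A and H2B genes sit head to head and share a promoter, and H2B promoters are known for an octamer element bound by OCT1. Mature microglia divide slowly, while progenitors and macrophages in culture can divide.

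Promoter sequences of 4 genes are shown as examples of different calls. H2BC3 and H3C3 had a peak in some lines and not in others. H2BC4 was picked from the 45 genes with a peak in all 21 libraries, and H4C6 from the 3 with none. The 4 do not stand for other genes with like calls, and H1-1, called in 4 libraries, is not shown. The stretches are the 250 bases before the annotated start, from RefSeq on GRCh38.p14, written 5′ to 3′ on the gene's strand. They lie at chr6:26043714-26043963 (minus strand) for H2BC3, chr6:26045134-26045383 (plus strand) for H3C3, chr6:26123927-26124176 (minus strand) for H2BC4 and chr6:26240143-26240392 (plus strand) for H4C6. Capitals mark matches, on either strand, to 3 motifs, which are the octamer ATTTGCAT, read on the other strand as ATGCAAAT, the TATA box TATAAA, read there as TTTATA, and the CCAAT box, read there as ATTGG. No match overlapped another.
H2BC3: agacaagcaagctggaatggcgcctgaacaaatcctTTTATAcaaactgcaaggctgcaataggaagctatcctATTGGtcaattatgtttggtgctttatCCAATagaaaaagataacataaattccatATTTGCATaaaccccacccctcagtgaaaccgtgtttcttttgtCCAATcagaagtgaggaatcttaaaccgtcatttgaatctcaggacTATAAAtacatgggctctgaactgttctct
H3C3: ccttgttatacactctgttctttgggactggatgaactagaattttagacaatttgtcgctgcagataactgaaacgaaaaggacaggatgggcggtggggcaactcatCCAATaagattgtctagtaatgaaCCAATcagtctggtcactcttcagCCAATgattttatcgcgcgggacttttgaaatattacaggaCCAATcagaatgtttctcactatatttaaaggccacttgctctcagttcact
H2BC4: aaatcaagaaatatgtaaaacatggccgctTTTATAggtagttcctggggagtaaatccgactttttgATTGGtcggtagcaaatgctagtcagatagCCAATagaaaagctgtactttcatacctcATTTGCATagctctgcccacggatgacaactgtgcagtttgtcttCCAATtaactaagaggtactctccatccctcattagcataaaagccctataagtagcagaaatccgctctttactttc
H4C6: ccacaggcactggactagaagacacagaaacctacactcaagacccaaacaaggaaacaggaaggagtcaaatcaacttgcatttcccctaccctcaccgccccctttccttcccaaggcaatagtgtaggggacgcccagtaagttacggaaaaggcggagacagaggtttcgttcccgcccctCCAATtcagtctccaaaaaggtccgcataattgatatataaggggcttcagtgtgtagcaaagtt
The H2BC3 stretch held 1 octamer, 2 TATA matches and 3 CCAAT matches, with the same-strand TATA match beginning 30 bp and the octamer 120 bp before the start. The H2BC4 stretch held 1 octamer, at 123 bp, 1 TATA match on the opposite strand and 3 CCAAT matches. H2BC3 and H2BC4 thus had these motifs in the same order except for the TATA match nearest the start. H3C3 had 4 CCAAT matches, the nearest at 52 bp, and H4C6 had 1 at 65 bp; neither had an octamer or a TATA match.

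Of the 53 protein-coding histone genes in the window, 48 matched an entry of the RefSeq promoter table, which covers 300 bases per start. The octamer was found in 11 of 14 H2B windows and 8 of 10 H2A windows, in 0 of the 6 H1, 8 H3 and 10 H4 windows, and in 1.65% of all 22131 promoter windows of the table. Because H2A and H2B genes of a pair share bases, these windows are not independent of each other. The H3 gene H3C4 has another entry, at the start it shares with H2AC7, which holds the octamer but was not the entry counted. TATAAA was found in 32 of the 48 (66.7%, against 9.46% of all windows). CCAAT was found in 41 of the 48 (85.4%, against 34.6%), in all 38 windows of the other 4 classes but in 3 of 10 H4 windows. The GC content of the 48 windows had a median of 42.3%, against 62.3% over all windows. Between the 40 histone windows called in all 21 libraries and the 8 called in fewer, the octamer was found in 45% and 12.5%, TATAAA in 67.5% and 62.5%, and CCAAT in 85% and 87.5%. These shares were not tested, and a match says only that the letters are present. The octamer shares also follow histone class, since all 10 H2A and 13 of 14 H2B windows were called in all 21. Apart from H2BC3, which has the octamer, the 8 windows called in fewer are of H1, H3 and H4, where none was counted.

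Most histone genes had a peak in every library. A peak over the gene span was called in all 21 libraries for 45 of the 53 genes (84.9%), against 52.2% of 19970 protein-coding genes. Histone genes are short, and of the 1249 protein-coding genes of up to 2000 bp, 48 histone genes among them, 13% had a peak in all 21. By class, 11 of 11 H2A, 13 of 14 H2B, 8 of 10 H3, 9 of 12 H4 and 4 of 6 H1 genes were called in every library. The genes lie in 3 blocks, of 269 kb with 32 genes, 15.2 kb with 5 genes and 86.4 kb with 16 genes, in which 25, 5 and 15 genes were called in all 21.

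Few histone genes were without a constant peak. H1-6, which encodes the testis-specific linker histone, H4C6, an H4 gene, and H4C7, which encodes a divergent H4 protein, had no peak over the gene in any of the 21 libraries. H1-1, a linker histone gene, had a peak in 4 libraries, replicates 1 and 3 of CD33 SNP and replicates 1 and 3 of INPP5D SNP. The covered lengths there were 781 and 501 bp in CD33 SNP and 756 and 501 bp in INPP5D SNP, and the other 17 libraries had none. H3C3 was called in 8 libraries and H2BC3, which encodes an H2B protein, in 9. H3C7 was missed only in replicate 2 of INPP5D SNP, and H4C13 only in replicate 2 of INPP5D SNP and of SORL1-A528T, which are among the shallow libraries. These 8 genes are the whole remainder of the 53.

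**Figure D1:**
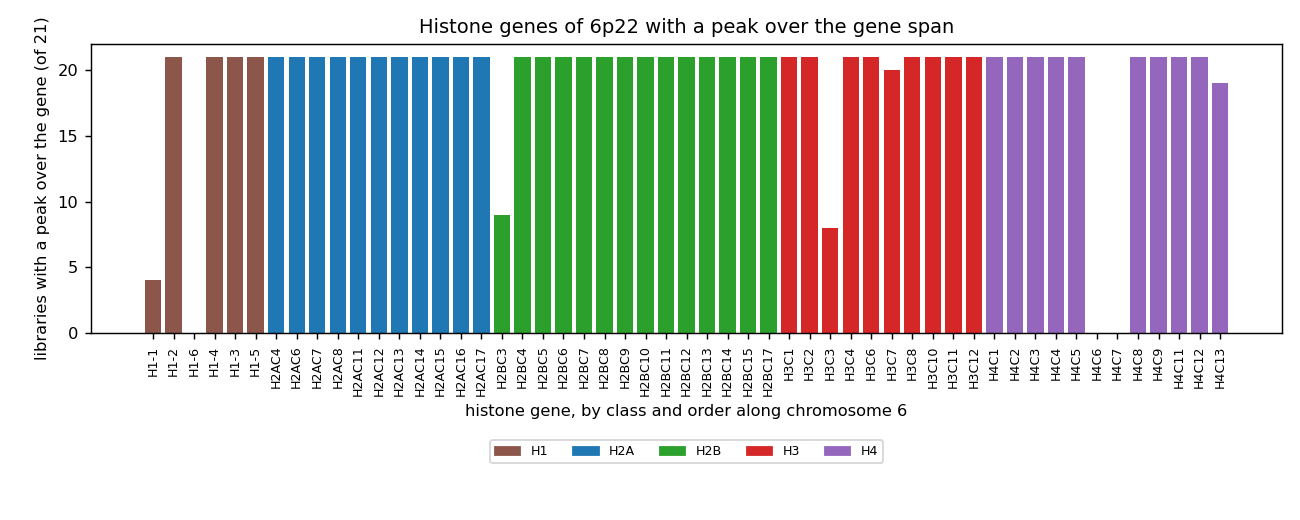
Number of the 21 libraries (vertical axis) with a peak over each of the 53 histone genes (horizontal axis, grouped and coloured by class). Of the bars, 45 reach 21 libraries, and H1-1 (4), H2BC3 (9) and H3C3 (8) are the low bars above 0, with H1-6, H4C6 and H4C7 at 0.

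Counted as regions, 41 of the 73 members (56.2%) were called in all 21 libraries, against 15.4% of all regions of the series. Near histone gene ends this was 29 of 31 (93.5%), and 46.9% of all 16228 gene-end regions of the series. Farther away it was 12 of 42 (28.6%), close to the 21 of 78 (26.9%) for other regions of the window. The near-gene regions were also wide, with a median of 3311 bp against 1658 bp for all gene-end regions and 737 bp over all regions. These sets differ in how often they were called. Among regions called in all 21 libraries the medians were closer, at 3486 bp, 2186 bp and 1576 bp. Peaks in each list run roughly from strong to weak, since peaks at the top of a list were shared with more of the other libraries than those at its bottom. On a percentile scale of that order, where 100 is the first peak, the 29 near-gene regions called in every library had a median of 94.7, against 90.9 for all gene-end regions and 82.1 for all regions called in every library. Histone gene ends thus stood high in the lists as well as being called often. In each library a region took the percentile of its highest peak, which favours wide regions that hold several peaks. The sets were not matched for width.

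The widest member called in every library covered H3C12, H2AC17 and H2BC17 (chromosome 6, positions 27889399 to 27896542), with a covered length of 3134 to 7000 bp and a median of 6464 bp. The region of H3C4, H2AC7 and H2BC7 followed with a median of 4253 bp, and that of H2BC11 and H2AC11 with 3658 bp. Each of these widest regions held more than 1 histone gene, so width here partly counts neighbouring promoters. The H3C1 and H4C1 region, which holds an H3 and an H4 gene, had a narrow spread, from 2248 to 2647 bp over the 21 libraries, at a median percentile of 98.4. The H2BC4 region, shared by H2BC4 and H2AC6, ranged from 1692 to 4299 bp.

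Head-to-head pairs were compared as a group because H2BC3 belongs to one. Of 11 pairs with starts within 2000 bp, 8 joined an H2A and an H2B gene, with starts 194 to 248 bp apart. Both genes of a pair lay in 1 merged region, and all 8 of these regions were called in every library. The other 3 joined an H2B and an H3 gene. Of these, the merged regions of H3C7 with H2BC9 (979 bp apart) and of H3C8 with H2BC10 (1518 bp) were called in all 21, although H3C7 itself had a peak over its span in 20. H2BC3 with H3C3 had the widest spacing of the 11, 1671 bp, and theirs was the 1 merged region of the 11 not called in every library. The 5 genes without an entry in the promoter table (H4C1, H4C3, H2AC12, H3C11 and H3C12) are in none of these pairs, so the list may be incomplete. Of these, H2AC12 lay with H2BC12 in a merged region called in all 21.

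The H2BC3 and H3C3 region, 2965 bp wide at positions 26043086 to 26046050 of chromosome 6, was called by line rather than by library. A peak was present in 3 of 3 libraries of WT, SORL1-KO and INPP5D SNP, and in 0 of 3 of TREM2-R47H, TREM2-KO, SORL1-A528T and CD33 SNP. The covered length was 2832, 659 and 1846 bp in WT replicates 1, 2 and 3. It was 2064, 1848 and 1955 bp in SORL1-KO, and 1971, 1134 and 2232 bp in INPP5D SNP. The 3 lines with a peak overlapped in covered length, and SORL1-KO had the narrowest spread. The other 12 libraries had 0 bp. This region was singled out for this pattern, so the calls are a description with no test.

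In 7 of the 9 libraries with a peak, the region stood in the upper part of the list. The highest percentile of the region in the list order was 91.2, 35.6 and 77.7 in WT, 75.2, 80.5 and 82.9 in SORL1-KO, and 82.5, 46.5 and 79.3 in INPP5D SNP. The low values, 35.6 and 46.5, were both of replicate 2. In 7 of the 9 libraries the region held 2 peaks, one over each gene. WT replicate 1 had a single peak of 2832 bp spanning both genes, and WT replicate 2 had a single peak of 659 bp over H2BC3 only, which is why H3C3 was called in 8 libraries.

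Libraries with and without the peak overlapped in sequencing depth. The 9 libraries with it had 12.8 to 65.4 M tags (1 M is 1000000 tags) and the 12 without it 14.2 to 67.4 M tags. The shallowest library with a peak was replicate 2 of SORL1-KO, and all 12 were deeper than it. The pattern was present within each replicate number. Every line includes a shallow replicate 2 and the region was singled out for a pattern by line, so this overlap and this recurrence follow from that choice. The part of depth was not tested. The calls were the same when every list was cut to its first 39711 peaks. In the 12 libraries without a peak, the stretch free of peaks ran for 19545 to 20796 bp between the neighbouring regions of H2AC4 and H1-2.

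**Figure D2:**
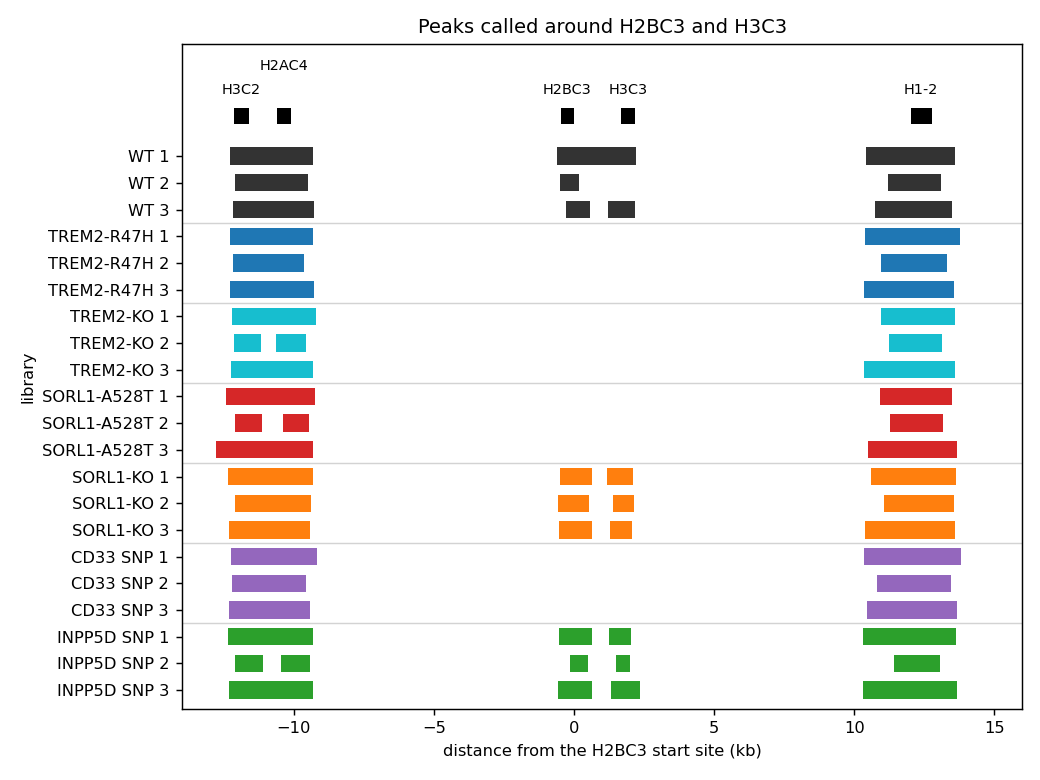
Called peaks (bars) in each of the 21 libraries (rows, coloured by line) against distance from the H2BC3 start site in kb; black boxes at the top are genes. The middle pair of genes has peaks in the 9 libraries of WT, SORL1-KO and INPP5D SNP and none in the other 12, while the flanking genes have peaks in all 21.

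The neighbours on either side did not share the pattern. The H2AC4 region, which holds the H2A gene H2AC4 and the H3 gene H3C2, covered 2979, 2618 and 2897 bp in WT, 2961, 2533 and 2965 bp in TREM2-R47H, and 3057, 2651 and 2882 bp in CD33 SNP. The H1-2 region, over a linker histone gene, covered 3173, 1874 and 2764 bp in WT, 3391, 2336 and 3207 bp in TREM2-R47H, and 3444, 2629 and 3227 bp in CD33 SNP. At both neighbours the groups overlapped, and replicate 2 was the narrowest of each of these lines. On the log2 scale of covered length after centring each library on its median, TREM2-R47H minus WT was -0.10 at H2AC4 (SE 0.179) and 0.12 at H1-2 (SE 0.169), each with an adjusted p of 0.996 in limma. For the other 5 lines the differences from WT ran from -0.09 to 0.02 at H2AC4 and from -0.01 to 0.19 at H1-2, with an adjusted p of 1 for each.

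Across the series the pattern of H2BC3 was rare. The region was singled out for this pattern, so the counts that follow describe it and are no test. It was the 1 region of 166736 with exactly these calls, and no region differed from it in 1 or 2 libraries. The 5 nearest differed in 3 libraries, and their nearest genes were CFAP20DC, CLXN, PAN3, MACROD2 and SMARCA1, none within 1 kb of a gene end. Regions called in 3 of 3 libraries of some lines and 0 of 3 of all others numbered 27 for 1 line, 0 for 2, 1 for 3 (H2BC3), 0 for 4, 1 for 5 and 53 for 6 lines. The 1 region present in 5 lines, 154 kb from HDX on the X chromosome, was absent from TREM2-R47H and SORL1-KO, a different split of the lines. Of the 53 present in all lines but 1, 6 were gene-end regions and 0 were members.

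Against WT, the H2BC3 region was the 1 member of 73 (1.37%) lost on an all-or-none basis, that is called in 3 of 3 WT libraries and 0 of 3 of the line, in each of TREM2-R47H, TREM2-KO, SORL1-A528T and CD33 SNP. Over all regions the share lost was 0.303% in TREM2-R47H, 0.0576% in TREM2-KO, 0.487% in SORL1-A528T and 0.0414% in CD33 SNP. In SORL1-KO and INPP5D SNP 0 members were lost, where the share over all regions was 0.233% and 0.142%. No member was gained in any line. The share of all regions gained was 0.127% in TREM2-R47H, 0.048% in TREM2-KO, 0.0114% in SORL1-A528T, 0.0624% in SORL1-KO, 0.0954% in CD33 SNP and 0.0276% in INPP5D SNP. These comparisons share the WT libraries and the region was named by the rule for this pattern, so nothing is read from its 4 losses against the background. With 3 libraries against 3 an exact test cannot go below a two-sided p of 0.1. The losses rest on WT replicate 2 at a stricter call, since its peak covers less than 50% of the region, and requiring that cover left 0 lost members in all 6 lines.

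**Figure D3:**
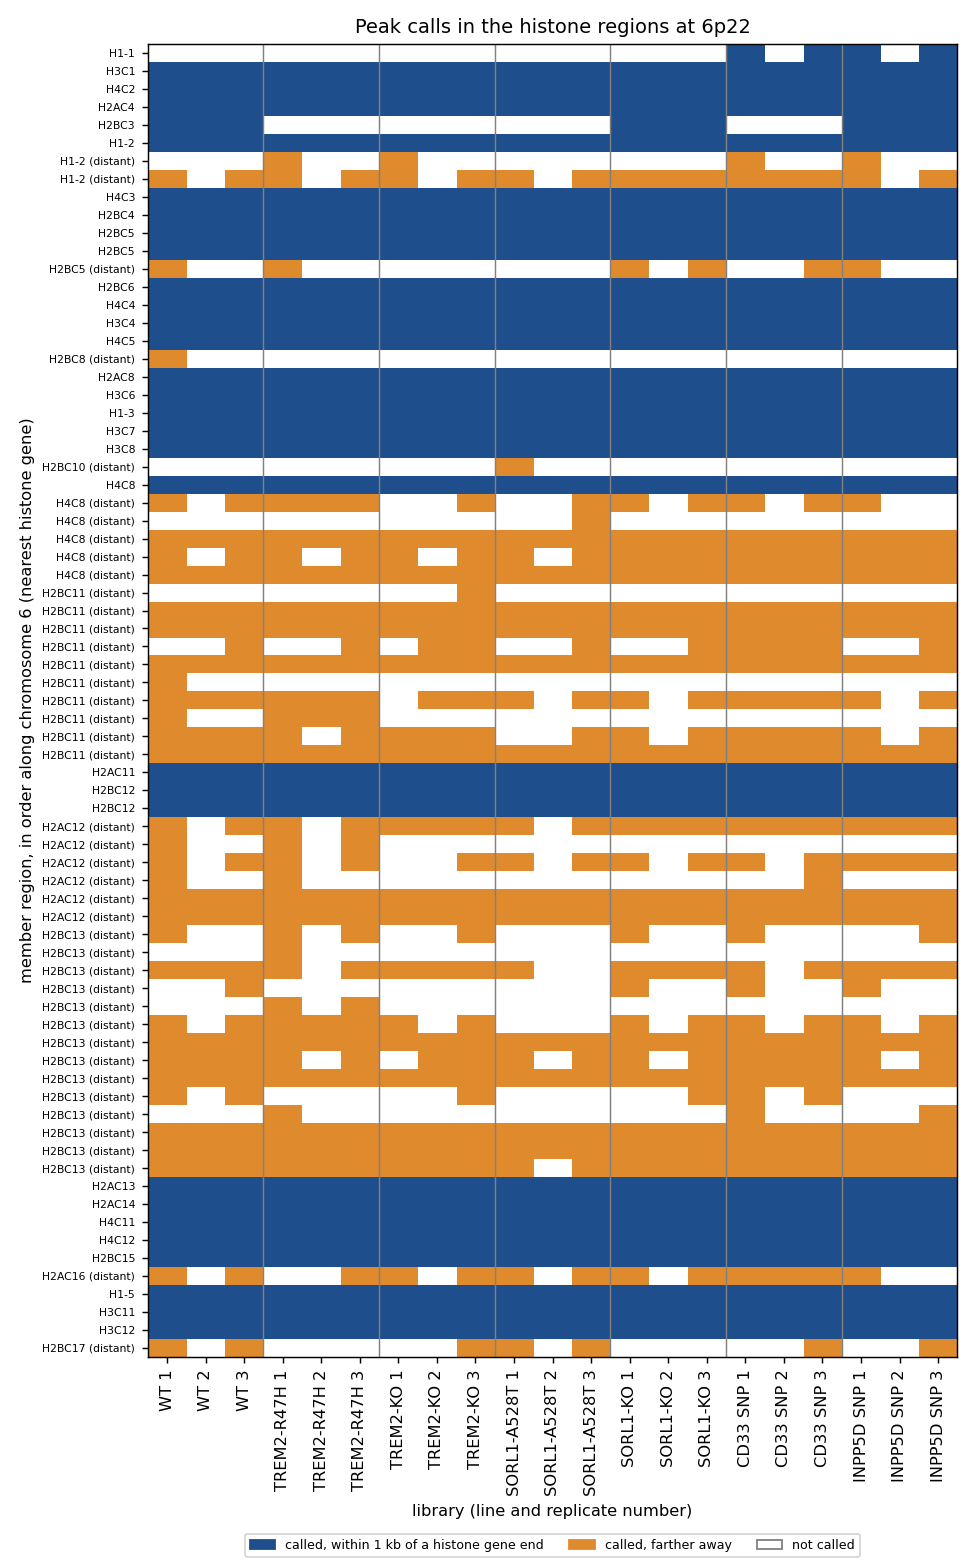
Calls (filled cells) of the 73 member regions (rows, in order along the chromosome, named by nearest histone gene) in the 21 libraries (columns, 3 per line); blue marks regions within 1 kb of a histone gene end and orange those farther away. Blue rows are filled across all 21 columns except H1-1 and H2BC3, and orange rows are broken most often in the replicate 2 columns.

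The share of possible member calls made was between 67.1% and 77.2% in the 7 lines. It was 76.7% ± 11.2 (SD, n = 3) in WT, 75.3% ± 10.9 in TREM2-R47H, 71.2% ± 7.25 in TREM2-KO, 67.1% ± 9.59 in SORL1-A528T, 73.5% ± 7.91 in SORL1-KO, 77.2% ± 7.54 in CD33 SNP and 74% ± 8.33 in INPP5D SNP, with 3 libraries each. No test was made of these shares, and every pair of lines overlapped in its libraries' values. The same share over all regions ran from 36.3% in SORL1-A528T to 49.1% in CD33 SNP, so the lowest and the highest line were the same in both. Replicate 2 was the shallow one in every line, with 12.8 to 17.5 M tags against 56.5 to 67.4 M for replicate 1 and 32.6 to 52.9 M for replicate 3.

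The replicate 2 libraries stood apart in the distant members and little in the regions near histone genes. Near gene ends, 93.5 to 96.8% of regions were called in the replicate 2 libraries and 93.5 to 100% in replicates 1 and 3. Among the 42 distant members the share was 28.6 to 50% in replicate 2, 50 to 78.6% in replicate 1 and 59.5 to 69% in replicate 3. Replicate 1, though deeper than replicate 3, was not higher in the median (64.3% and 66.7%), and the ranges of the 2 overlapped. The part of depth in these calls was not tested. Replicate 2 of SORL1-A528T, at 14.2 M tags and with the shortest list, 39736 peaks, called 0 of the 32 members that were not called everywhere. By line, the near-gene share was 96.8% in WT and SORL1-KO, 93.5% in TREM2-R47H, TREM2-KO and SORL1-A528T, 95.7% in CD33 SNP and 98.9% in INPP5D SNP, differences made entirely by the calls at H2BC3 and H1-1.

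**Figure D4:**
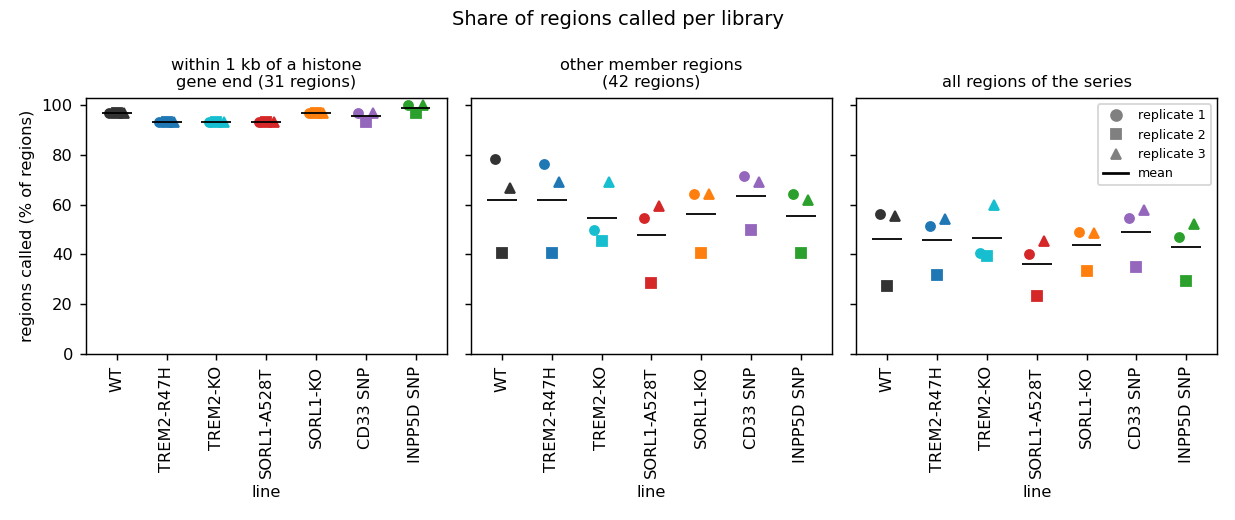
Percent of regions called in each library (points, shaped by replicate number) for the 7 lines, with the mean as a line, for member regions near histone genes (left), other members (middle) and all regions (right). Near-gene points lie between 93.5% and 100%, and in the other panels the replicate 2 squares are lowest in each line.

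The distant members often lay over tRNA genes, which share this stretch of chromosome 6 with the histone genes and are transcribed by RNA polymerase III. The window holds 100 annotated tRNA genes. A tRNA gene lay in 17 of the 42 distant members (40.5%), in 7 of the 12 that were called in all 21 libraries (58.3%), in 1 of the 31 near-gene members and in 20 of the 78 other regions of the window (25.6%), against 0.11% of all regions. Among the rest, 2 tRNA regions were chosen after their calls were seen. The region at 27091702 to 27092529, over TRP-CGG2-1, was called in 3 of 3 libraries of TREM2-R47H (501, 629 and 758 bp), in WT replicate 1 (626 bp) and in none of the other 17. The region at 27684335 to 27685111, over TRT-AGT2-2, was called in 0 of 3 libraries of SORL1-A528T, in 3 of 3 of TREM2-R47H and in 2 of 3 of each other line, replicate 2 being the one missed. Neither was all-or-none against WT. Both lie more than 1 kb from any histone gene, and they are members only because a histone gene is the nearest protein-coding gene.

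Called width is a graded measure that the lists allow, beside the order of the peaks, and it was compared for the 41 members called in all 21 libraries. With limma over 25599 such regions, 0 of the 41 members passed a Benjamini-Hochberg adjusted p of 0.05 in any line. Over all tested regions 2 passed in TREM2-R47H (0.00781%), both narrower, and 0 (0%) passed in each of TREM2-KO, SORL1-A528T, SORL1-KO, CD33 SNP and INPP5D SNP. At an unadjusted p under 0.05 the members numbered 0 in TREM2-R47H (5.04% of all regions), 2 in TREM2-KO (4.88% of members and 2.43% of all regions) and 1 in SORL1-A528T (2.44% and 5.09%). They numbered 4 in SORL1-KO (9.76% and 3.29%), 0 in CD33 SNP (2.23% of all regions) and 2 in INPP5D SNP (4.88% and 2.34%). The median difference of the 41 members from WT, in log2 covered length, was 0.06 in TREM2-R47H, 0.04 in TREM2-KO, -0.01 in SORL1-A528T, 0.03 in SORL1-KO, 0.03 in CD33 SNP and 0.05 in INPP5D SNP. Over all regions the medians ran from -0.03 to 0.00491.

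Single members moved by more than these medians without passing the test. The H2BC4 region differed from WT by -0.16 (INPP5D SNP) to 0.24 (CD33 SNP) with an SE of 0.218, and the H3C1 region by -0.06 to 0.07 with an SE of 0.182. Chosen after its values were seen, the H4C5 region, over an H4 gene, was narrow in 1 library only, with 808 bp in WT replicate 2 against 2767 and 2559 bp in the other WT libraries and 1984 to 3098 bp elsewhere. All 6 lines were above WT there, by 0.384 to 0.549 (SE 0.234, adjusted p 0.996 to 1 in limma), and they share the WT libraries.

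**Figure D5:**
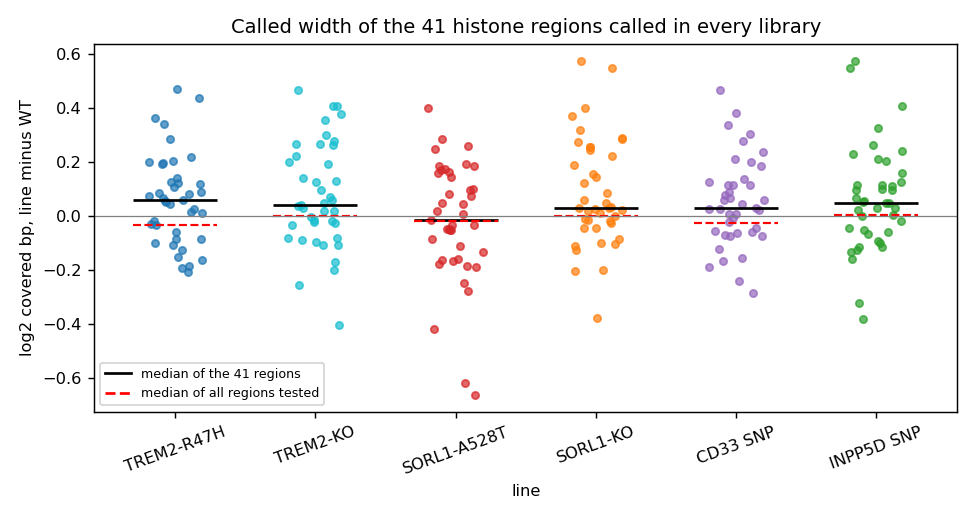
Difference from WT in log2 covered length (vertical axis) for each of the 41 histone regions called in every library (points), by edited line, with the median of the 41 (solid line) and of all 25599 regions tested (dashed line). The points spread on both sides of 0 in each line, between -0.662 and 0.576.

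Calls were also averaged per gene as depth-adjusted calls, where the mean call of equally recurrent regions in the same library is subtracted, so that 0 marks a gene called as often as such regions. Of 11756 genes with at least 3 regions, 6 were member genes (H1-2, H2BC5, H4C8, H2BC11, H2AC12 and H2BC13), so most histone genes, H2BC3 included, could not enter this test. With limma, 0 of the 6 passed in any line, and over all genes 0 (0%) passed in each of the 6 comparisons. At an unadjusted p under 0.05 the genes numbered from 332 in CD33 SNP (2.82%) to 952 in TREM2-R47H (8.1%), and 1 of the 6 member genes was among them in each of TREM2-KO, SORL1-A528T, SORL1-KO and INPP5D SNP. It was H2BC11 each time, against the same WT libraries. This is 16.7% of members, beside 3.59%, 4.06%, 4.83% and 3.09% of all genes in these 4 lines. For H1-2, an H1 gene with 3 regions, the depth-adjusted call was -0.11 in WT and the lines differed from it by 0.0934 to 0.178 (SE 0.146). Chosen after its values were seen, H2BC11 with 5 regions stood at 0.17 in WT, and the difference was -0.0148 in TREM2-R47H, -0.22 in TREM2-KO, -0.247 in SORL1-A528T, -0.274 in SORL1-KO, -0.183 in CD33 SNP and -0.251 in INPP5D SNP (SE 0.0998, adjusted p 0.941 to 1). These comparisons share the WT libraries. The 5 regions lay 4580 to 91839 bp from H2BC11, and those at 34768 and 39787 bp held tRNA genes. The peak over H2BC11 itself was counted with H2AC11 and was called in all 21 libraries, so this score leaves it out. The scores of H2AC12 and H2BC13 likewise leave out the peaks over these genes, which were counted with H2BC12 and H2AC13.

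Other genes of histone supply and of the cell's identity were read in the same lists, as a peak within 1 kb of either gene end. Of 23 factors of histone gene transcription and histone mRNA processing, among them NPAT, HINFP and SLBP, 22 were called in all 21 libraries, and LSM10 in 19. Of 14 S phase and proliferation genes 13 were called in all 21, and of 9 replication-independent histone genes 7. Of 16 listed histone genes outside 6p22, 15 had a match and 6 were called in every library, while H2AC19, H3C14, H3C15, H4C14 and H3-4 were called in 0. The list was drawn up for replication-dependent genes but includes H2AJ, a replication-independent variant gene, which is among the 6. Several of the listed genes lie in near-identical copies on chromosome 1, so their calls are uncertain. Over all protein-coding genes 42.3% were called in all 21 and 24.2% in 0. Of 12 microglia and macrophage genes 9 were called in all 21, AIF1 in 18, GPR34 in 19 and TMEM119 in 0. Of 10 pluripotency genes, POU5F1, NANOG, LIN28A, LIN28B and CRIPTO were called in 0 libraries, SOX2 in 17, DNMT3B in 15, ZFP42 in 10, PRDM14 in 7 and SALL4 in 2. Of 7 mesenchymal genes none was called in all 21, but COL1A2 and PDGFRB were called in 19, TWIST1 in 18 and COL1A1 in 15, and the other 3 in 0. Of 11 erythroid, megakaryocyte and mast cell genes 1 was called in all 21, ITGA2B in 15, KLF1 in 13, HDC in 3, GP9 in 1 and 6 in 0. A call here marks open chromatin at a gene end, and does not show that the gene is expressed.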

How the data were processed

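The data were peak lists of 21 libraries. Per the labels' protocols, Omni-ATAC libraries were sequenced with paired-end reads (NextSeq 500). The submitters' processing notes name cutadapt 1.18, STAR 2.7, HOMER 4.10 and DESeq2, with no roles given. HOMER made a separate list for each library with no control library, per the file headers, with a peak size of 500 and a minimum distance of 1000 bp. The score the authors deposited is 1 throughout, so only peak positions, and no heights, can be compared. Neither the genome build nor a shift of reads for the transposase cut is given in the sources used here. RefSeq GRCh38.p14 was used for names and sequences, since 37.8% of its promoter windows were called in all 21 libraries and 1.16% and 1.19% after shifting them by 10 kb either way.

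Peaks on chromosomes Y and M and on other sequences (0.0821% of 1604926) were left out. A region counted as called in a library with any peak inside it. For the depth-adjusted call, the mean call of equally recurrent regions in that library was subtracted from each call, and the result averaged per gene over regions within 100 kb. Calls per gene and log2 covered length were tested over all 21 libraries with limma 3.58.1 in R 4.3.3, two-sided, with Benjamini-Hochberg adjustment per comparison, after a check on simulated data. The numbering of replicates was checked and did not meet the rule set for pairing, so the main fits hold no term for it. Libraries of the same number were still more alike than others, as given below. Libraries shared at most 0.21% of identical peaks. Where a gene had several entries in the promoter table, the one with the lowest coordinate was used for the histone counts.

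Named were H2BC3, members all-or-none in any comparison, the genes with the highest and lowest share of calls in each class (ties by position), members past a limma test, and the 5 regions most like H2BC3. Members, gene lists and tests were chosen with earlier results of these data known. Of 108 list genes 107 matched the gene table, by symbol or synonym. Alternatives were a cover of 50%, equal list lengths, regions called in at least 2 libraries, nearest gene by its end, near-gene members alone, omission of a replicate number or of the libraries titled SORL1-A528T, at least 1 or 5 regions per gene, quantile normalization, list percentile in place of width, and the replicate block. Counting by histone gene span was added after seeing the data.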

Additional observations from a re-analysis of the deposited data

How the results depend on the processing

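The calls at H2BC3 were the same with equal list lengths and without each replicate number in turn. With a cover of at least 50% of the region, 0 members were lost in TREM2-R47H, TREM2-KO, SORL1-A528T and CD33 SNP, since WT replicate 2 covered too little, and 1 was gained in TREM2-KO, a tRNA region near H2BC11. Leaving out a replicate number gave 1 to 3 lost members in TREM2-R47H, 2 to 3 in SORL1-A528T, 0 to 1 in SORL1-KO and INPP5D SNP, and 0 to 1 gained in TREM2-R47H, CD33 SNP and INPP5D SNP, with fewer libraries to agree. At a cover of 50% the share of member calls was 63.5% in WT and 63% in INPP5D SNP, and 58.4% to 72.6% in the other 5 lines. With equal list lengths it was 87.8% in WT, 85.3% in TREM2-R47H, 87.8% in TREM2-KO, 84% in SORL1-A528T and SORL1-KO, 85.9% in CD33 SNP and 86.5% in INPP5D SNP, over a smaller set of regions. Near gene ends alone it was 96.8% in WT and SORL1-KO, 93.5% in TREM2-R47H, TREM2-KO and SORL1-A528T, 95.7% in CD33 SNP and 98.9% in INPP5D SNP.

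Among limma counts over all genes, equal list lengths gave 3 genes in TREM2-R47H and 1 in CD33 SNP, at least 1 region per gene gave 1 in CD33 SNP, and at least 5 gave 1 in INPP5D SNP. For width, leaving out any replicate gave 0 regions in TREM2-R47H, and without replicate 2 SORL1-A528T had 6 (0 to 6 over the replicates). Quantile normalization gave 1 in TREM2-R47H, and the list percentile gave 1 in TREM2-R47H, 35 in SORL1-A528T and 1 in SORL1-KO. The cause was not tested. No member passed under any of these settings.

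Replicate numbers did not pair the libraries by the rule that every same-numbered pair correlate above 0.1 (41 of 63 pairs for calls per gene, r from -0.061 to 0.534, and 59 of 63 for width, r from 0.0753 to 0.494). The median r of same-numbered pairs was 0.164 for calls and 0.284 for width, against -0.0843 and -0.128 for other pairs. The numbers thus carry a shared part that the main fits do not take out. Depth also differed by replicate number, and its part in this was not tested. With the replicate block, 3 regions changed in width in TREM2-R47H and 1 in SORL1-A528T, and 0 genes changed in any line.

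The lists give no peak height, so an absent call can be a peak just under the caller's threshold, and signal below it is not analysed here. The replicate 2 libraries, at 12.8 to 17.5 M tags, limit what can be said of weak distant regions.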
